A study of Mus musculus with 3 samples.

Results

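MHC class I and its peptide loading machinery were followed through 10 genes, H2-D1, H2-K1, H2-Q7, H2-T23, B2m, Tap1, Tap2, Tapbp, Psmb8 and Psmb9, which are 10 of the 31053 genes measured. The genes were taken by symbol, and each symbol was found in 1 row. They were chosen with earlier results of these data known. Each was described across cell classes of the mouse brain, with weight on oligodendrocytes, neuroblasts and astrocytes, and across the 3 libraries of the study. The libraries came from control mice, mice with ischemic stroke (middle cerebral artery occlusion with reperfusion) and mice with hemorrhagic stroke (collagenase type IV injected into the striatum). The labels give every library as brain tissue of 10-week-old mice of strain C56BL6, and each library pooled cells of 8 mice, so no animal can be told from another. The labels do not state how long after stroke the cells were taken. The 3 libraries share 1 matrix and are told apart by a suffix of 1, 2 or 3 on the cell barcode, and no source used here names the condition of a suffix. Values are therefore given for library 1, library 2 and library 3, named after that suffix, the condition of a library was not inferred, and no test between conditions was made.

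MHC class I molecules present peptides from inside the cell to CD8 T cells and are ligands of receptors on natural killer cells. The heavy chain needs the light chain β2-microglobulin to reach the surface. Peptides are cut by the proteasome, in which interferon-induced subunits can replace the constitutive ones, are pumped into the endoplasmic reticulum by the TAP transporter and are loaded with the help of tapasin. Interferons raise many of these genes, and neurons and oligodendrocytes of the healthy brain are known for low levels of class I, while microglia and endothelial cells carry more.

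Unique molecular identifier (UMI) counts, each standing for 1 captured RNA molecule, were available for 35968 barcodes, and 31982 had at least 1000 UMIs and at most 30% mitochondrial counts. The 3 libraries kept 8969, 13769 and 9244 barcodes, with medians of 6389, 5801 and 6287.5 UMIs. Cells were put in 17 classes by raw UMIs of marker genes, none of which is an MHC class I gene, and a class is named after its markers. In all, 27163 barcodes passed 1 gate, 2690 passed several and were set aside, and 2129 passed none. Genes that the gates did not use were found in most cells of their class. A Mobp UMI was in 99.4% of oligodendrocytes, C1qa in 99.9% of microglia and Trbc2 in 95.5% of T cells. Stmn1 was in 99.5% of neuroblasts and Clu in 83.3% of astrocytes. Shares were lower for Cd2 in T cells (71.4%), Cd24a in neuroblasts (82.7%) and Atp1b2 in astrocytes (76.9%). Mobp, C1qa, Trbc2 and Clu were far higher in their class than in the others. Stmn1 marked its class less well, at 6210 CPM in neuroblasts and 1020 CPM in the other classes. Library 3 stood apart in its makeup, since it held 889 of the 906 endothelial cells, 168 of the 183 mural cells and only 22 of the 2329 T cells. The libraries shared 24 to 43 barcode sequences per pair, few beside their size. Each level below is in CPM, the UMIs of a gene per 1000000 UMIs of a class in a library, with an exact Poisson 95% interval, and shares of cells have exact Clopper-Pearson 95% intervals. All intervals cover counting error only and say nothing of the spread between mice.

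Of the 10 genes, 9 lie on chromosome 17 and B2m lies on chromosome 2 (GRCm38, GENCODE M21), and all are annotated as protein coding. Within chromosome 17, Psmb9 (chr17:34181987-34187764, minus strand), Tap1 (chr17:34187553-34197225), Psmb8 (chr17:34197721-34201454) and Tap2 (chr17:34203527-34216321) are direct neighbours. H2-K1 (chr17:33996017-34000347, minus strand) and Tapbp (chr17:33915899-33929292) lie before them, and H2-D1 (chr17:35262730-35267499), H2-Q7 (chr17:35439155-35443773) and H2-T23 (chr17:36029773-36032855, minus strand) lie after them. B2m spans chr2:122147686-122153083. The 250 bases before the RefSeq start site (GRCm38.p6) were searched on both strands for 4 short motifs in the 9 genes with an entry, H2-D1, H2-K1, H2-Q7, H2-T23, B2m, Tap1, Tapbp, Psmb8 and Psmb9. The motifs were AANNGAAA, a core of interferon-response elements, GGGNNNNNCC, a loose kappaB-like pattern whose matches can overlap each other, CCAAT, the box of NF-Y, and TGACG, a core of cAMP-response elements. The windows of H2-D1, H2-K1, H2-Q7 and B2m are shown because they hold all 4, which the window of the heavy chain gene H2-T23, with 2 of the 4, does not, and the matched letters are in capitals, 5′ to 3′ on the strand of the gene.
H2-D1: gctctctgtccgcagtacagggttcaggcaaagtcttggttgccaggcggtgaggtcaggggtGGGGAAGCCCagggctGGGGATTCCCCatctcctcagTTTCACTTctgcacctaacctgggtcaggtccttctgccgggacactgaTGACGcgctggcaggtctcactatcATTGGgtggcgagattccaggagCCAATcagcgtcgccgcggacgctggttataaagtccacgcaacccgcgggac
H2-K1: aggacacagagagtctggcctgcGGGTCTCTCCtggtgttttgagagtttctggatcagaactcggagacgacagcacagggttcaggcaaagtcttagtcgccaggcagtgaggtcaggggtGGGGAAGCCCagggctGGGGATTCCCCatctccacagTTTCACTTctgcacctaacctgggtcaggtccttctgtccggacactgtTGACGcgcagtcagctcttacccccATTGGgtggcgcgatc
H2-Q7: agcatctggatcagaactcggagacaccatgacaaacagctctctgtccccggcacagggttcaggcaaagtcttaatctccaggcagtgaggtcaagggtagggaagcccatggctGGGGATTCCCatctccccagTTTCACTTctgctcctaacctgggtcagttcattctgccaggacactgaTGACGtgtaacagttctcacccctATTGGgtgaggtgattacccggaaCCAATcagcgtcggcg
B2m: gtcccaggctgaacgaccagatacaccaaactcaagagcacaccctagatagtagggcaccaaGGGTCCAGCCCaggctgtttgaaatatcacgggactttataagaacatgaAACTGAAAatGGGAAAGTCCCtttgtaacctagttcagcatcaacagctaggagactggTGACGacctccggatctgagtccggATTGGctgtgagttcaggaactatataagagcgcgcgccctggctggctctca
These windows are chr17:35262844-35263093, chr17:34000348-34000597 (minus strand), chr17:35438905-35439154 and chr2:122147437-122147686. All 4 motifs were present in 4 of the 9 windows, against 0.469% of 32851 mouse promoter windows of the same length. AANNGAAA was present in 5 of 9 (21.3% of all windows), GGGNNNNNCC in 6 of 9 (45.8%), CCAAT in 8 of 9 (33.8%) and TGACG in 6 of 9 (17.8%). The Tap1 and Psmb9 windows are not independent, because these genes start 226 bases apart on opposite strands and share 225 of the 250 bases. The H2-D1, H2-K1 and H2-Q7 windows share long runs of the same letters, so they are not separate occurrences of the motifs either. A match describes letters in the window and is not evidence that a factor binds there.

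The 10 genes together were highest in lymphoid and myeloid classes and far lower in oligodendrocytes, astrocytes, neuroblasts, choroid plexus cells and neurons. Their summed level in T cells was 9645 CPM in library 1, 11654 in library 2 and 9639.8 in library 3, and in microglia, the resident macrophages of the brain, it was 9579.6, 11410.1 and 4979. Natural killer cells held 10619 CPM in library 1 and 11961 in library 2. Microglia thus stood close to T cells in libraries 1 and 2 and far under them in library 3, where T cells were 22 in number. Neutrophils stood at 8452, 5332 and 3613 CPM, the monocyte/dendritic class at 7992 and 9287 CPM in libraries 1 and 2, and border-associated macrophages at 4464 CPM in library 3. Endothelial cells, which could be described in library 3, held 3489.8 CPM (3446 to 3534), and mural cells of the same library 876 CPM. With microglia set aside, oligodendrocyte precursors ranked first among glia and neuroblasts, with 1131, 1784 and 419 CPM. Oligodendrocytes held 881, 861 and 135 CPM, astrocytes 611, 666 and 331 CPM, and neuroblasts 329, 434 and 116 CPM. Oligodendrocytes thus lay above astrocytes in libraries 1 and 2 and below them in library 3, in each case with no overlap. Neurons held 136 CPM in library 1 and 465 CPM in library 2, and choroid plexus cells 622 and 476 CPM. Several neighbours in this order did not differ beyond counting error. In library 1 the intervals of T cells and microglia overlapped, as did those of choroid plexus cells and astrocytes. In library 2 natural killer cells overlapped T cells, and choroid plexus cells, neurons and neuroblasts overlapped each other. In library 3 neutrophils overlapped endothelial cells, and oligodendrocyte precursors (349 to 499.7 CPM) overlapped astrocytes (294 to 370 CPM).

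**Figure D1:**
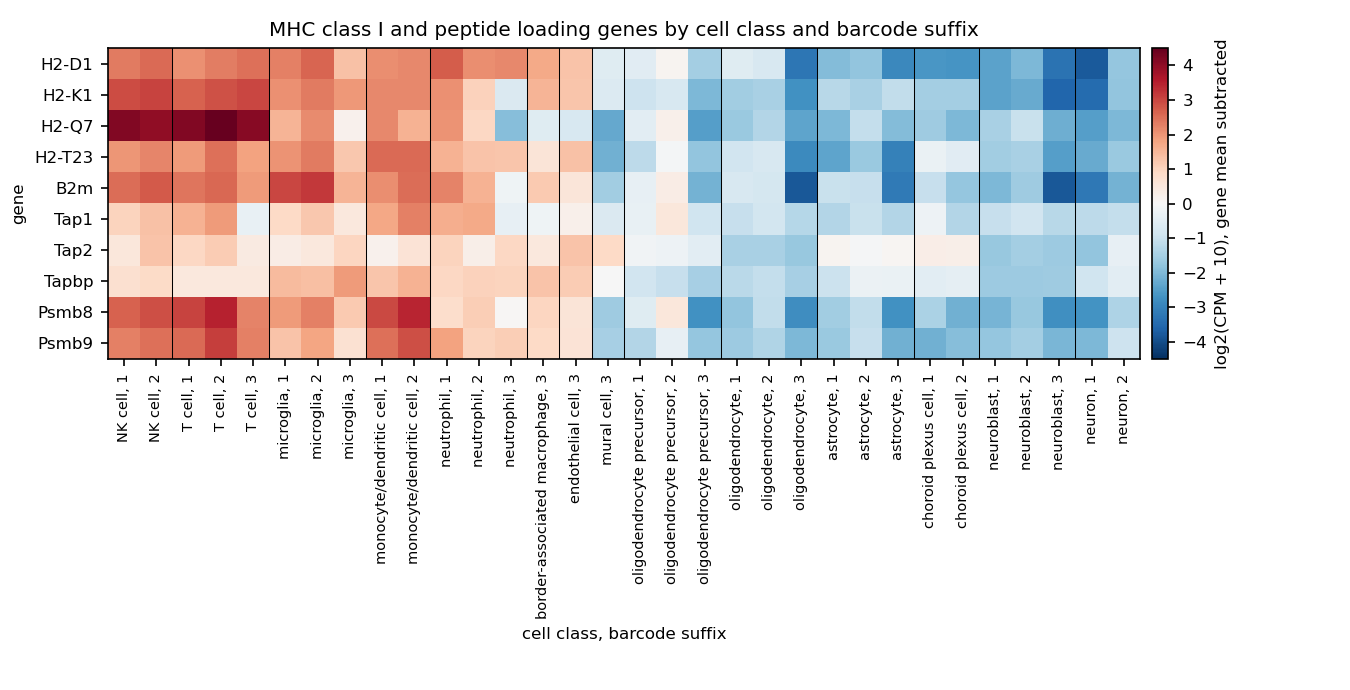
Level of each gene by cell class and library (suffix 1 to 3), as log2(CPM + 10) with the mean of the gene over the groups subtracted, for groups of at least 20 cells; red is above and blue below the mean of the gene. Immune classes and endothelial cells are red for most genes, oligodendrocytes, neuroblasts and neurons are blue, and H2-D1, B2m and Psmb8 of oligodendrocytes are deeper blue in library 3.

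Against microglia, all 10 genes were at least 2-fold lower in oligodendrocytes and all 10 were at least 2-fold lower in neuroblasts, computed on CPM plus a prior of 10 over the 3 libraries together. Of all genes at 10 CPM or more, 17.7% were that much higher in microglia than in oligodendrocytes and 18.6% than in neuroblasts. In astrocytes the count was 9 of 10 against 17.8% of all genes, and Tap2 was the exception. For B2m the ratio of microglia to oligodendrocytes was 13.5 (13.1 to 13.8) in library 1, 15.9 (15.5 to 16.3) in library 2 and 52.3 (48.7 to 56.3) in library 3. The gap between these classes was thus wider in library 3, where microglia held less B2m but oligodendrocytes held far less.

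RNA that leaks from one cell type into the droplets of another can add to low levels. It was estimated within each library from C1qa, C1qb and C1qc for microglia, Ms4a4b, Cd8a and Cd8b1 for T cells and Slco1a4, Slco1c1 and Ptprb for endothelial cells (the last in library 3 alone), and the level of each MHC gene that such RNA would bring is called its carried-over level. In oligodendrocytes the microglial share of RNA so estimated was 1.26%, 1.79% and 0.477%. Summed over the 10 genes, the carried-over level of oligodendrocytes was 135, 225 and 47.0 CPM, below the measured 881, 861 and 135 CPM in each library. In neuroblasts it was 172, 282 and 45.6 CPM beside a measured 329, 434 and 116 CPM, below the measured level in each library. In astrocytes it was 223, 330 and 411 CPM beside 611, 666 and 331 CPM. The astrocyte value of library 3 exceeds the measurement. It rests on Slco1c1, a transporter gene that astrocytes also express, and without Slco1c1 it was 46.0 CPM. These sums do not hold for every gene. The interval of a gene lay above its carried-over level for 10, 10 and 7 of the 10 genes in oligodendrocytes of libraries 1, 2 and 3. The same count was 8, 9 and 8 in neuroblasts, and 5, 6 and 3 in astrocytes with Slco1c1 used.

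**Figure D2:**
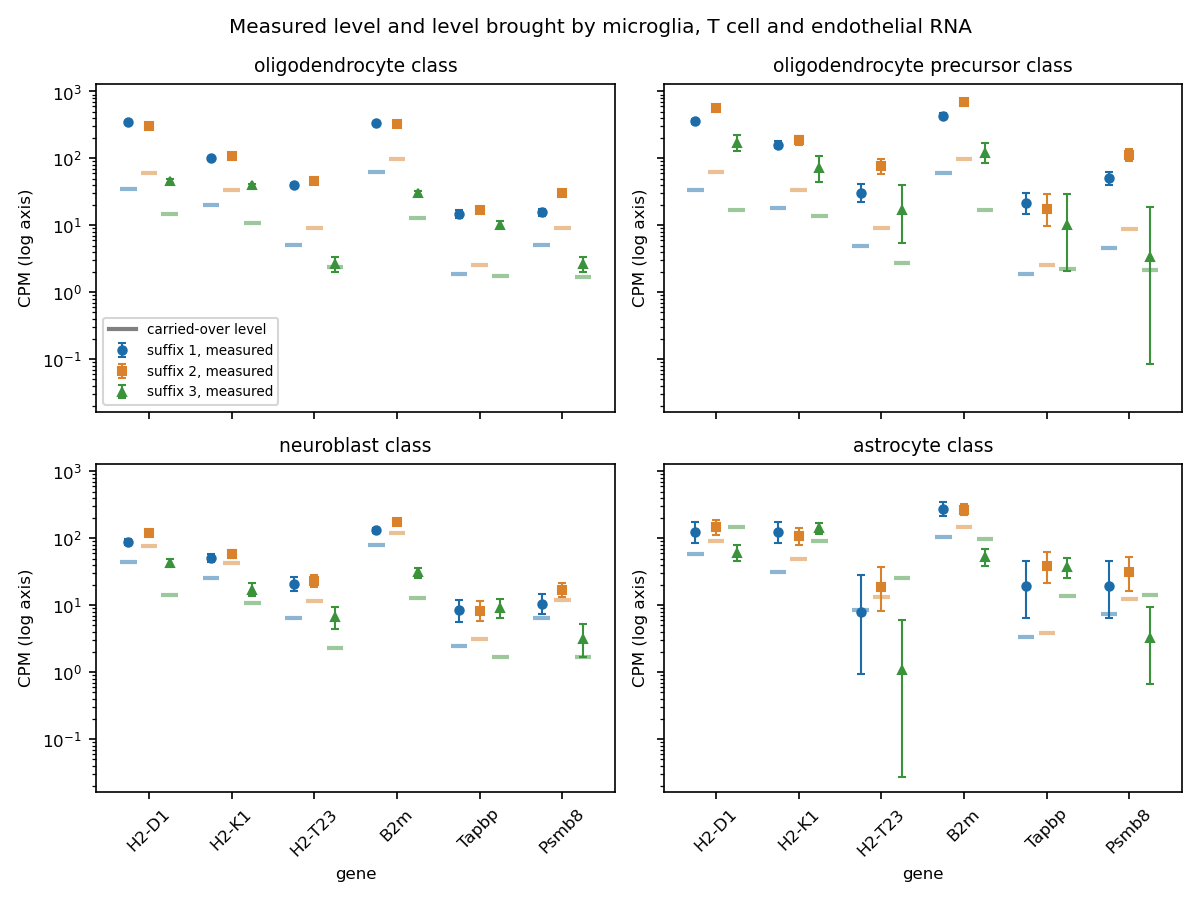
Measured CPM (points, exact Poisson 95% bars, log axis) of 6 genes in 4 classes, by library (suffix 1 to 3), beside the carried-over level from microglia, T cell and endothelial RNA (pale dashes). Oligodendrocytes and their precursors lie well above the dashes for H2-D1 and B2m in libraries 1 and 2. Neuroblasts lie closer to the dashes for these genes in the same libraries, and above them for Tapbp. The astrocyte dashes of library 3 hold the share read from Slco1c1.

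In oligodendrocytes, the myelin-forming cells, the main heavy chains and the light chain were far higher in libraries 1 and 2 than in library 3. H2-D1, a classical heavy chain, stood at 353 CPM (343 to 362) in library 1, 308 (300.1 to 316) in library 2 and 45.7 (43.1 to 48.5) in library 3. The ratio to library 3 was 7.71 (7.23 to 8.23) for library 1 and 6.73 (6.31 to 7.17) for library 2, and no interval of the 3 libraries overlapped another. A UMI of H2-D1 was found in 53.9%, 47.2% and 24.4% of oligodendrocytes, at medians of 6922, 5613 and 6410.0 UMIs per cell. Neurons of library 1, which are deeper with a median of 11615 UMIs, showed a share of 24.7%. H2-K1, the other classical heavy chain, was at 101 CPM in library 1, 109.5 in library 2 and 39.6 in library 3. The intervals of libraries 1 and 2 overlapped and that of library 3 lay lower, at ratios of 2.55 (2.35 to 2.77) and 2.77 (2.56 to 2.99). H2-T23, which encodes the heavy chain Qa-1 read by receptors on natural killer cells, was at 40.1, 45.7 and 2.63 CPM. Its ratios to library 3 of 15.2 (11.8 to 19.98) and 17.3 (13.5 to 22.7) came from only 65 UMIs in that library, where the carried-over level was 2.42 CPM. H2-Q7, a Qa-2 heavy chain, was low in every library, with 7.71, 12.6 and 0.810 CPM. B2m, the light chain of all class I molecules, had 339 CPM (329 to 348), 323 (315 to 331) and 30.9 (28.7 to 33.1). It showed a ratio of 10.96 (10.2 to 11.8) for library 1 over library 3 and 10.4 (9.69 to 11.3) for library 2, and the intervals of libraries 1 and 2 overlapped.

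The loading genes of oligodendrocytes were low, and Tapbp differed least between libraries. Tapbp, which encodes tapasin, stood at 15.0 CPM in library 1, 16.9 in library 2 and 10.2 in library 3, with ratios to library 3 of 1.47 (1.22 to 1.76) and 1.66 (1.40 to 1.96). Tap1 and Tap2, the subunits of the peptide pump, were low in every library, Tap1 at 2.14, 4.28 and 0.405 CPM and Tap2 at 3.82, 3.73 and 1.46 CPM. Their intervals in library 3 lay under those of the other libraries. Psmb8, the immunoproteasome subunit LMP7, had 15.7 CPM (13.8 to 17.8), 30.8 (28.4 to 33.3) and 2.63 (2.03 to 3.36). It was the loading gene with the clearest order of libraries, 2 above 1 above 3 with no overlap. Psmb9, the subunit LMP2, stood at 4.54, 7.41 and 0.932 CPM in the same order, also with no overlap. Of the 6 genes with at least 10 CPM in oligodendrocytes, 5 (H2-D1, H2-K1, B2m, H2-T23 and Psmb8) were at least 2-fold apart between libraries, against 1.4% of all genes tested, and in all 5 library 3 was at least 2-fold lower than both others, against 0.61%. The other member tested was Tapbp, and H2-Q7, Tap1, Tap2 and Psmb9 did not reach 10 CPM. That filter was taken over the 3 libraries together. H2-T23 and Psmb8, both under 10 CPM in library 3, passed it only through libraries 1 and 2, where they are high. Nothing is read from their calls. The median log2 change of the 10 genes was 0.87 for library 1 over 3 and 1.17 for library 2 over 3, beside -0.03 for all genes tested in each case. The member median includes the members that did not reach 10 CPM, while the other covers only genes that did, so these are unlike sets. Without library 3 none of the tested members was 2-fold apart, and 8 of all genes were. With a prior of 50 CPM in place of 10 the count was 2, beside 33 of all genes.

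**Figure D3:**
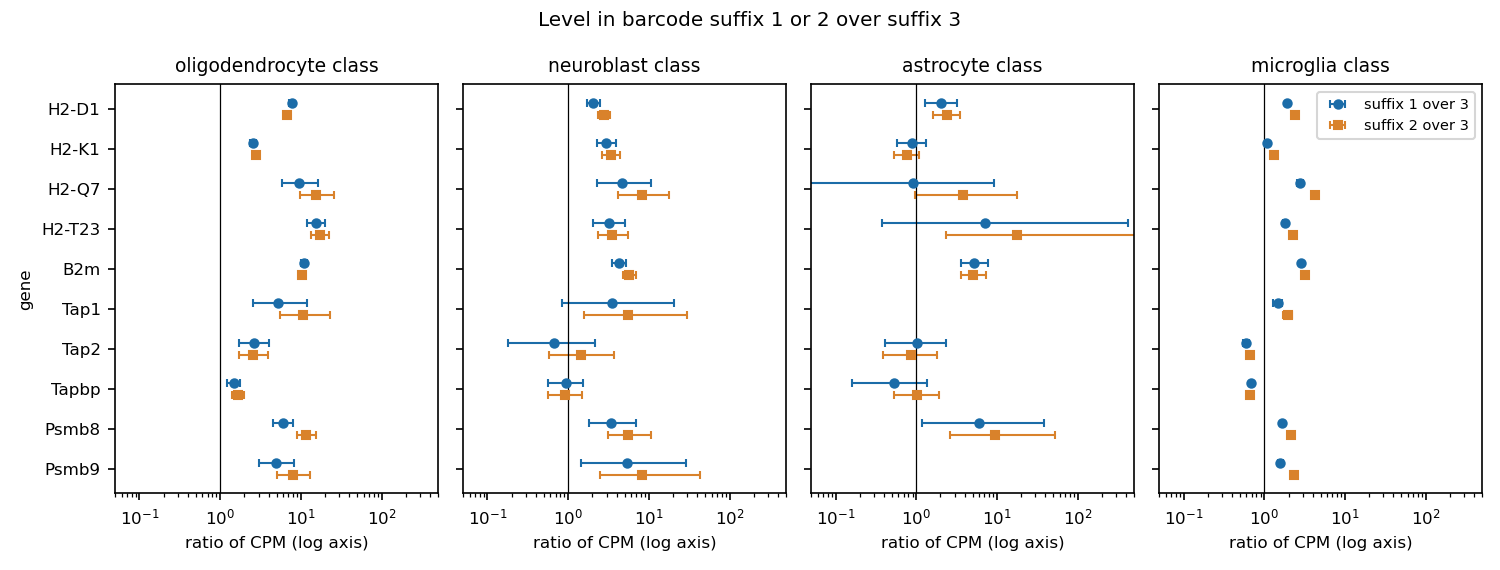
Ratio of the CPM in library 1 (circles) or library 2 (squares) to library 3 for each gene in 4 classes, on a log axis, with 95% intervals of counting error; pairs without a UMI on 1 side are not drawn, and some astrocyte intervals of H2-Q7 and H2-T23 run past the axis. In oligodendrocytes every interval lies right of 1, Tapbp nearest to it, while in microglia Tap2 and Tapbp lie left of 1, and in astrocytes H2-K1 spans 1.

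The oligodendrocyte level was carried by few cells. Counted per cell over H2-D1, H2-K1 and B2m together, the median oligodendrocyte held 2 UMIs in libraries 1 and 2 and 0 in library 3. Cells with 10 or more of these UMIs were 308 of 2052 in library 1 (15.0%, 13.5 to 16.6), 297 of 3315 in library 2 (8.96%, 8.01 to 9.98) and 7 of 3527 in library 3 (0.198%, 0.0798 to 0.408). They held 68.8% and 61.4% of all oligodendrocyte UMIs of the 3 genes in libraries 1 and 2. To compare at equal depth, cells were thinned to 5000 UMIs apiece, and 558, 1337 and 998 shallower oligodendrocytes were left out. The shares were then 11.3% (9.75 to 13.03), 9.40% (8.15 to 10.8) and 0.0791% (0.00958 to 0.285), so libraries 1 and 2 overlapped and library 3 lay apart. Oligodendrocyte precursors thinned in the same way reached 11.1% and 22.1% in libraries 1 and 2 and 0 of 26 cells in library 3, with an exact upper bound of 13.2%. In neuroblasts the shares were 0.331% and 1.66% in libraries 1 and 2, and in microglia they were 97.4% to 99.9%. The 9 neuroblasts of library 2 with 10 or more UMIs before thinning carried 1625 CPM of the microglial gene C1qa.

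**Figure D4:**
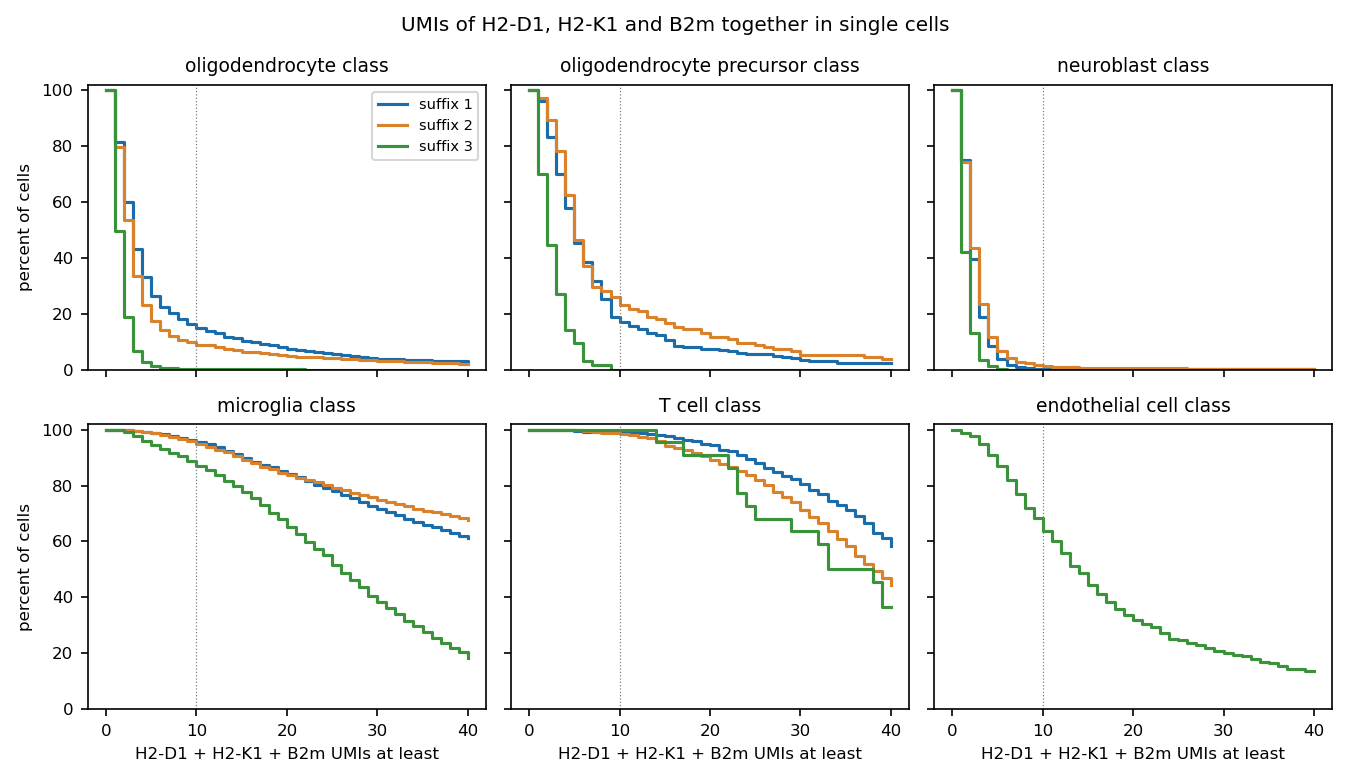
Percent of cells (vertical axis) with at least the number of H2-D1, H2-K1 and B2m UMIs given on the horizontal axis, in 6 classes, with a line per library (suffix 1 to 3) and a dotted line at 10 UMIs. Oligodendrocytes and their precursors show a long tail in libraries 1 and 2 that is missing in library 3, while nearly all microglia and T cells lie past 10 UMIs.

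Oligodendrocytes with 10 or more UMIs of H2-D1, H2-K1 and B2m were set beside those with 2 or fewer in the same library. Those 3 genes define the groups, so only the other genes describe them, and no test was made. H2-T23 was 138 CPM in the high cells and 9.32 in the low cells of library 1, and 262 and 10.0 CPM in library 2. Psmb8 was 41.5 against 7.87 CPM and 146 against 12.8 CPM, and Psmb9 was 11.5 against 2.49 CPM and 31.2 against 3.84 CPM. Tapbp was 26.4 against 11.3 CPM and 45.3 against 11.1 CPM. These genes were higher in the high cells of both libraries, but the groups were cut by other members, so nothing is read from the differences. Beside the 3 defining genes, H2-T23 and Psmb8 were at least 2-fold higher in the high cells of library 1, as were 0.462% of all genes, and H2-T23, H2-Q7, Tapbp and Psmb8 in library 2, as were 1.88%. Nothing is read from these calls, since the groups were cut by members in the same cells. The constitutive subunit Psmb5 was 215 against 208 CPM in library 1. C1qa was 119.7 against 128 CPM in library 1 and 259 against 176 CPM in library 2, beside 10078 and 11292 CPM in microglia, and the T cell gene Trbc2 was 3.41 and 1.86 CPM in the high cells. Called doublets made up 1.299% of the high cells and 0.229% of cells under 10 UMIs in library 1, and 4.04% and 0.364% in library 2. The high cells were also deeper, with medians of 9681.5 and 8215 UMIs against 6079 and 5161 in the low cells.

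Beyond the members, the 20 genes with the largest rise in the high cells were ranked by the smaller log2 change of libraries 1 and 2. They were thus chosen after their values were seen, and a part of them is named here as a description. Ifi27l2a, known to be induced by interferon, led the list, at 833 CPM in high and 54.3 CPM in low cells of library 1 and 2173 and 66.5 CPM in library 2. Bst2, which encodes tetherin, was 141 against 15.6 CPM and 377 against 21.7 CPM. Ifit1, Ifit3, Oasl2, Irf7 and Irf9 were also among the 20, with Ifit3 at 65.7 against 9.05 CPM and 234 against 17.1 CPM. Cd74, the invariant chain of MHC class II, was 88.0 against 7.87 CPM and 169 against 12.01 CPM. H2-Ab1, a class II chain, was 44.3 and 78.7 CPM in the high cells, beside 63.7 and 126 CPM in microglia of the same libraries, and the part of microglial RNA in it was not tested. Serpina3n, a serine protease inhibitor gene, was 112 against 23.4 CPM and 757 against 5.84 CPM, and it was at 0.166 and 0.795 CPM in microglia. C4b, a complement component, was 258 against 67.2 CPM and 1035 against 26.9 CPM. Marcks, at 122 against 37.1 CPM and 116 against 31.4 CPM, was also among the 20, and it was at 877 and 814 CPM in microglia. So was 9630013A20Rik, at 78.1 against 17.7 CPM and 86.5 against 6.01 CPM. In all oligodendrocytes of library 3, Ifi27l2a was at 7.98 CPM, Serpina3n at 5.997 CPM and H2-Ab1 at 0.527 CPM.

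Subgroups of oligodendrocytes, cut by Klk6 (a secreted protease) and Il33 (an alarmin), were compared after values had been seen. H2-D1 was highest in cells with at least 2 UMIs of each gene, at 688 CPM (644 to 734) in 120 cells of library 1 and 1292 CPM (1243 to 1342) in 214 cells of library 2, and it was 27.1 CPM (19.3 to 37.1) in 99 cells of library 3. Cells with Klk6 alone held 328, 245 and 36.6 CPM, cells with Il33 alone 346, 178 and 47.2 CPM, and cells with neither 188, 201 and 52.7 CPM. In libraries 1 and 2 the double-marked cells thus lay above every other subgroup, while in library 3 their interval lay under those of the cells with Il33 alone and with neither. B2m in the double-marked cells was 554, 1152 and 27.1 CPM, and their C1qa was 96.8, 153 and 20.2 CPM. These cells were also deep, with medians of 10206.5, 9061 and 13460.0 UMIs. Of the 2052, 3315 and 3527 oligodendrocytes, 310, 336 and 1896 had no UMI of C1qa, C1qb, C1qc, Ms4a4b, Cd8a or Cd8b1. H2-D1 was 342, 293 and 44.8 CPM in these cells, and the part of leaked RNA in the class was not tested.

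Oligodendrocyte precursors, which divide and give rise to oligodendrocytes, exceeded them in the sum of the 10 genes in each library, though in library 1 the H2-D1 and H2-T23 intervals of these classes overlapped. H2-D1 was 360.4, 558 and 172 CPM and B2m 435, 704 and 122 CPM, so library 2 was above library 1 and library 3 lowest for both genes, with no overlap. Psmb8 was 50.3, 114 and 3.38 CPM, the last from 1 UMI. Tap2 was 24.2, 22.3 and 16.9 CPM, with overlapping intervals in the 3 libraries and above the 1.46 to 3.82 CPM of oligodendrocytes. H2-Q7 was 30.04 and 56.3 CPM in libraries 1 and 2 and 0 in the 63 cells of library 3, where 3 UMIs would be 10.1 CPM.

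Neuroblasts, the migrating precursors of neurons, held little class I in every library. H2-D1 was 88.6 CPM (78.9 to 99.2), 120.2 (109.8 to 131) and 43.3 (37.4 to 49.8), beside carried-over levels of 44.9, 76.2 and 14.2 CPM. H2-K1 was 51.2, 58.0 and 17.2 CPM, H2-T23 21.1, 23.4 and 6.63 CPM, and B2m 132, 177 and 30.9 CPM. For each of these 4 genes library 3 was lowest without overlap. Their levels include carried-over RNA, which over the 10 genes was 172, 282 and 45.6 CPM beside a measured 329, 434 and 116 CPM. All 4 genes with at least 10 CPM in neuroblasts were at least 2-fold apart between libraries, against 1.88% of all genes, and 2 of them, H2-K1 and B2m, were at least 2-fold lower in library 3 than in both others, against 0.709%. H2-T23, at 6.63 CPM in library 3, passed the 10 CPM filter only through libraries 1 and 2, so nothing is read from its call. With carried-over RNA subtracted, 2 members were 2-fold apart, beside 121 of all genes. Without library 3 none was, beside 10 of all genes. Tapbp was level, at 8.48, 8.36 and 9.06 CPM, and lay above its carried-over 2.43, 3.12 and 1.72 CPM. In the 73 and 75 neuroblasts of libraries 1 and 2 without a microglial or T cell UMI, H2-D1 was 69.2 (44.3 to 103) and 87.7 (60.0 to 124) CPM. These intervals overlapped those of all neuroblasts. Dividing neuroblasts, with at least 2 UMIs of Mki67 or Top2a, held 93.9, 92.6 and 26.0 CPM of B2m, and neuroblasts with none held 151, 227 and 34.5 CPM. C1qa moved the same way, at 92.8, 106 and 21.3 CPM in dividing and 197, 296 and 62.8 CPM in the other neuroblasts, and its part in the difference was not tested. For H2-D1 in library 1 these subgroups overlapped, at 101 CPM (82.0 to 124) and 85.7 CPM (74.1 to 98.5). A class I-like chain, Cd1d1, which presents lipids, was high in neuroblasts of every library, at 87.1, 92.9 and 87.2 CPM. It was 0.130 to 0.365 CPM in oligodendrocytes and 2.33 to 8.40 CPM in microglia. In the 22 T cells of library 3 it was 29.6 CPM, the level that 3 UMIs give in that group.

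Astrocytes were few, with 65, 105 and 172 cells, and shallow, with medians of 2347, 2466 and 4196.5 UMIs. Their pattern was unlike that of oligodendrocytes in that H2-K1 did not fall in library 3, at 125 CPM (85.7 to 177), 107 (78.3 to 144) and 141 (118 to 168) with all intervals overlapping. B2m was 274 (214 to 346), 267 (220.1 to 322) and 52.2 (38.5 to 69.2) CPM, a ratio of 5.25 (3.59 to 7.75) and 5.12 (3.62 to 7.34) to library 3. H2-D1 was 125, 146 and 60.9 CPM, with the library 3 interval under the others. Tap2 was alike, at 31.3, 26.3 and 30.4 CPM, as was Tapbp, at 19.6, 38.2 and 37.0 CPM, with overlapping intervals. Psmb8 was 19.6, 31.0 and 3.26 CPM, the last from 3 UMIs. Tap1 had no UMI in libraries 1 and 3, where 3 UMIs would be 11.8 and 3.26 CPM. Of the 6 genes tested, H2-D1, B2m and Psmb8 were at least 2-fold apart between libraries, against 16.6% of all genes. B2m and Psmb8 were at least 2-fold lower in library 3 than in both others, against 1.25%. Psmb8, at 3.26 CPM in library 3, passed the 10 CPM filter only through libraries 1 and 2, so nothing is read from its calls. Without library 3 none of the tested members was 2-fold apart, beside 721 of all genes. Without library 2 the count was 1, beside 922 of all genes. Astrocytes with at least 2 UMIs of Agt (angiotensinogen) held 242, 195 and 195 CPM of H2-K1, and those without held 74.3 and 127 CPM in libraries 2 and 3, with intervals that overlapped in library 3 but not in library 2. C1qa moved the same way in library 2, at 544 CPM with Agt and 199 CPM without, and its part was not tested.

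Microglia expressed every member, and their genes did not move as 1 block. H2-D1 was 2534, 3179 and 1317 CPM, H2-K1 1341, 1642 and 1243 CPM, H2-T23 365, 458 and 204 CPM, and B2m 4555, 5120.0 and 1616 CPM. For these 4 genes library 2 was highest and library 3 lowest, with no overlap, though the span of H2-K1 was small. H2-Q7 was 150.3, 232 and 53.8 CPM, a ratio of 4.31 (3.99 to 4.66) for library 2 over 3. Tap1 was 36.9, 48.7 and 25.03 CPM, Psmb8 320.0, 410.0 and 190.4 CPM, and Psmb9 97.7, 142 and 61.4 CPM, again in the same order. Tap2 and Tapbp went the other way, with Tap2 at 38.1, 42.1 and 63.7 CPM and Tapbp at 142, 136 and 205 CPM. These values are shares of the microglial total, and the median gene tested was lower in library 1 than in library 3 by 0.33 on the log2 scale and in library 2 by 0.36, so the Tapbp changes of -0.50 and -0.56 lay near that shift while B2m, at 1.49 and 1.66, lay far above it. Of the 10 genes, 6 (H2-D1, B2m, H2-Q7, H2-T23, Psmb8 and Psmb9) were at least 2-fold apart between libraries, against 12.3% of all genes, and 2 (B2m and H2-Q7) were at least 2-fold lower in library 3 than in both others, against 2.54%. Without library 3 none was 2-fold apart, beside 10 of all genes. Without library 2 the count was 2, beside 617 of all genes. Microglia with at least 2 UMIs of Cst7, a gene of activated microglia, held 2791 and 3447 CPM of H2-D1 in libraries 1 and 2, and those with none held 1927, 1996 and 1313 CPM. For B2m the values were 5062 and 5555 CPM with Cst7, and 3328, 3268 and 1602 CPM without. The Cst7-free microglia of libraries 1 and 2 thus lay above those of library 3 for these genes, but not for H2-K1, at 1125, 1156 and 1241 CPM.

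T cells and natural killer cells held the most H2-Q7. It was 1005, 1256 and 948 CPM in T cells and 982 and 882 CPM in natural killer cells of libraries 1 and 2, overlapping in library 1, against 150.3, 232 and 53.8 CPM in microglia. T cells with a Cd8a or Cd8b1 UMI held 1121 and 1397 CPM of H2-Q7 in libraries 1 and 2, above the 806 and 863 CPM of T cells with a Cd4 UMI. For H2-D1 and H2-K1, the 22 T cells of library 3 did not share the lower levels of oligodendrocytes, neuroblasts and microglia. Their H2-D1 was 2158, 2576 and 2914 CPM (2591 to 3266) and their H2-K1 2010.1, 2364 and 2617 CPM, with library 3 overlapping library 2 for both. B2m of T cells was lower in library 3, at 2976, 3402 and 2114 CPM (1839.9 to 2417), and Psmb8 was 713, 954 and 405 CPM. Endothelial cells of library 3 held 1278 CPM of H2-D1, 756 of H2-K1, 813 of B2m, 221 of H2-T23 and 81.9 of Tap2. For H2-D1 this overlapped the 1317 CPM of microglia of the same library, while B2m was lower than their 1616 CPM and Tap2 was higher than their 63.7 CPM. The 90th percentile of endothelial cells was 47 UMIs of H2-D1, H2-K1 and B2m and the median was 13. Mural cells of library 3 held 346 CPM of H2-D1, 181 of B2m and 60.7 of Tap2, above the oligodendrocytes and neuroblasts of that library.

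The balance of immunoproteasome and constitutive subunits differed between classes. The share of Psmb8 among Psmb8 and Psmb5 UMIs, the subunits that take the same place in the proteasome, was 82.6%, 88.1% and 78.8% in T cells and 77.6%, 81.0% and 63.7% in microglia. It was 41.2% (39.0 to 43.4) in endothelial cells of library 3. In oligodendrocytes it was 6.96% (6.14 to 7.86), 12.2% (11.3 to 13.1) and 1.18% (0.909 to 1.497), with no overlap. In their precursors it was 11.0% (8.75 to 13.5), 21.7% (18.0 to 25.8) and 1.12% (0.0284 to 6.10), the last from 1 Psmb8 UMI. In neuroblasts it was 3.93% (2.76 to 5.39), 6.29% (4.94 to 7.89) and 1.16% (0.638 to 1.95). In astrocytes it was 11.4% (3.79 to 24.6), 11.1% (6.05 to 18.3) and 1.299% (0.269 to 3.75), from 5, 13 and 3 Psmb8 UMIs. Carried-over RNA was not taken out of these shares. The microglial share of RNA estimated in neuroblasts was 1.63%, 2.11% and 0.497%, and its part in their Psmb8 share was not tested. The share of Psmb9 among Psmb9 and Psmb6 UMIs was 60.4%, 69.2% and 53.8% in T cells, 32.5%, 36.7% and 33.6% in microglia, and 1.37%, 2.07% and 0.285% in oligodendrocytes. Microglia of library 3 thus had the lowest Psmb8 share of the 3, while their Psmb9 share overlapped that of library 1. Psmb10, the remaining inducible subunit, made up 12.1%, 12.3% and 7.96% of Psmb10 and Psmb7 UMIs in oligodendrocytes, lowest in library 3 without overlap. In precursors, astrocytes and neuroblasts the intervals of the 3 libraries overlapped. The shares were 27.5%, 33.5% and 28.6% in precursors, 30.6%, 16.9% and 23.6% in astrocytes and 9.75%, 8.91% and 7.77% in neuroblasts. In microglia they were 58.0%, 59.9% and 55.8%, and only libraries 2 and 3 did not overlap.

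**Figure D5:**
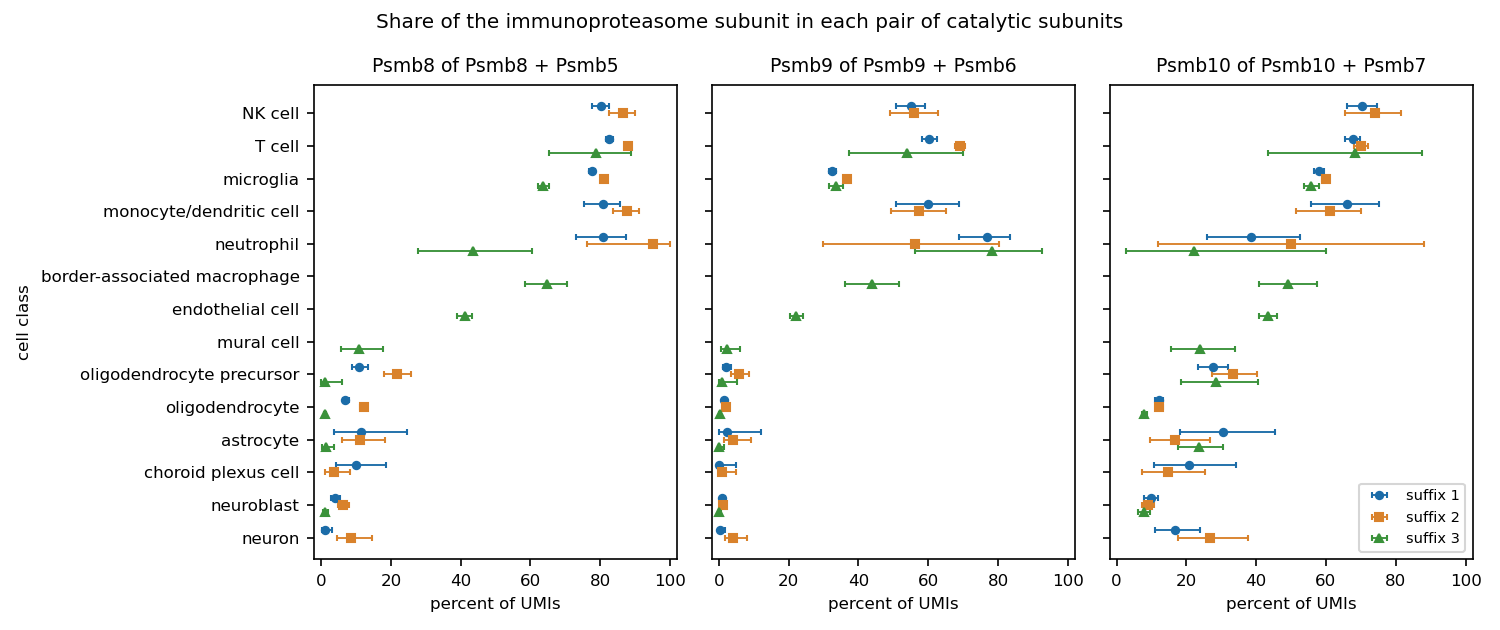
Percent of UMIs from the immunoproteasome subunit in each pair that fills the same catalytic place, by cell class and library (suffix 1 to 3), with exact Clopper-Pearson 95% bars, for groups of at least 20 cells. T cells, natural killer cells, microglia and the monocyte/dendritic class lie above 60% for Psmb8, endothelial cells of library 3 near 41%, and oligodendrocytes and neuroblasts under 15%.

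Of 41 other genes of the pathway, 39 were found in 1 row each. Those with at least 10 CPM in a class were tested, 13 in oligodendrocytes, 14 in neuroblasts, 17 in astrocytes and 23 in microglia. None was at least 2-fold higher in library 3 than in both others in oligodendrocytes or neuroblasts. In microglia, H2-M3 (85.7, 108 and 34.1 CPM), a chain that presents formylated peptides, and Lilrb4a (61.8, 77.7 and 2.59 CPM), an inhibitory receptor, were lower in library 3. Hfe (44.8, 41.2 and 122 CPM), of iron uptake, and Fcgrt (37.8, 38.1 and 101 CPM), the neonatal Fc receptor, were higher there. H2-M3, Hfe and Fcgrt were called among 6 other heavy chains tested in microglia, and Lilrb4a among 2 receptors. Lilrb4a passed the 10 CPM filter only through libraries 1 and 2, so nothing is read from its call. Of all genes tested in microglia, 2.54% were at least 2-fold lower in library 3 than in both others. The share of all genes that much higher in library 3 was not computed in any class, and the median microglial gene was itself higher there. In astrocytes Fcgrt alone passed, higher in library 3 at 23.5, 26.3 and 65.2 CPM. Irf1, a transcription factor of class I promoters, was higher in microglia of library 3, at 67.5, 89.5 and 181 CPM, without reaching 2-fold over both others, opposite to most members. H2-Q4, a further heavy chain, did so as well, at 150.0, 189 and 277 CPM. The chaperones Calr and Pdia3, which serve loading but also fold other proteins, were not 2-fold apart in oligodendrocytes, with Calr at 347, 353 and 419 CPM.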

How the data were processed

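Single cells from control, ischemic stroke and hemorrhagic stroke brains were measured in 3 Chromium 3′ v3 libraries, 1 per condition. The authors deposited 1 matrix of UMI counts, whole numbers with no normalization, made with Cell Ranger 3.1.0 and STAR on mm10 with reads down-sampled across libraries; the submitters' processing notes also list Seurat 3.1.1. Libraries held 69270514 to 105957232 UMIs.

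Barcodes with at least 1000 UMIs and at most 30% mitochondrial counts were kept. A gate asked for 3 markers and 4 UMIs of a class (4 and 8 for oligodendrocytes and microglia, 4 and 6 for neurons). Summed counts gave CPM. Folds used CPM plus a prior of 10, for genes of at least 10 CPM over the 3 libraries together. A 2-fold difference was the rule of size, because 1 library per condition allows no test. Named genes were the members, the pathway, gate and carry-over lists and the 5 genes most like the members; others are marked as chosen after their values were seen. Members and lists were chosen with earlier results of these data known. Doublets were called by Scrublet (scanpy 1.11.5, expected rate 10%) within each library and left out only as an alternative. Steps were tested on simulated data. There, the carry-over genes of a class were absent from the other simulated classes, so an error like that of Slco1c1 in astrocytes could not show.

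Of the 90-base windows in the last 500 bases of H2-T23 transcripts, 13.4% match other genes exactly, and of H2-Q7 4.73%, so these levels are less certain. The window length was set here, and the reads themselves were not used. Promoters and positions came from RefSeq (GRCm38.p6) and GENCODE M21. Python 3.11.15, NumPy 2.4.6, SciPy 1.17.1, pandas 2.3.3 and Matplotlib 3.10.9 were used. Alternatives were filters, gates, doublets, depth, carried-over RNA, prior, scaling and leaving out each library. Results on some genes are not reported here.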

Additional observations from a re-analysis of the deposited data

How the results depend on the processing

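No paired analysis was possible because each condition had 1 library and the result came from no test. Added after seeing the data were leaving out cells with a C1q or T cell UMI and the carried-over estimate without Slco1c1. Counts of genes at least 2-fold lower in library 3 than in both others were not part of the plan either. Their direction is the one the members show, so they are a description. The summed level was 569 CPM in oligodendrocytes, 284 in neuroblasts and 464 in astrocytes over the 3 libraries. With barcodes of several gates given to 1 class it was 763, 512 and 765 CPM, with each cell thinned to 1000 UMIs 537, 362 and 635 CPM, with carried-over RNA subtracted 439.9, 123 and 207 CPM, and without cells with a C1q or T cell UMI 293, 165 and 362 CPM. The last setting also changed the mix of libraries, since 310, 336 and 1896 oligodendrocytes were left, while H2-D1 within libraries 1 to 3 was 342, 293 and 44.8 CPM. Astrocytes had 316 CPM when Slco1c1 was left out of the subtraction. At most 10% mitochondrial counts gave 578 CPM in oligodendrocytes and 388 in astrocytes, 2000 UMIs or more gave 272 in neuroblasts and 409 in astrocytes, leaving out called doublets gave 559 in oligodendrocytes and 265 in neuroblasts, and stricter gates gave 595 in oligodendrocytes. Leaving out 1 library at a time gave 422 to 870 CPM in oligodendrocytes, 208 to 386 in neuroblasts and 392 to 645 in astrocytes.

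The number of members 2-fold apart between libraries was 5 in oligodendrocytes, 4 in neuroblasts, 3 in astrocytes and 6 in microglia. This counts H2-T23 and Psmb8 in oligodendrocytes, H2-T23 in neuroblasts and Psmb8 in astrocytes, which lay under 10 CPM in library 3. Over all genes the numbers were 103, 154, 1519 and 781. With a prior of 50 CPM it was 2, 1, 1 and 3, beside 33, 45, 192 and 244 of all genes. It was 0 to 5, 0 to 4, 0 to 3 and 0 to 6 when 1 library was left out. Without library 3 it was 0 in each class, beside 8, 10, 721 and 10 of all genes. In neuroblasts it was 2 with carried-over RNA subtracted, beside 121 of all genes. In astrocytes it was 5 with barcodes of several gates assigned, beside 1349 of all genes. After thinning it was 6 there, beside 4834 of all genes, so the rise was not particular to the members. Of 63 single-gene changes of at least 2-fold, 848 alternative values were computed, of which 63 fell under 2-fold, 27 of them with the prior of 50, and 1 turned, Psmb8 in astrocytes of library 1 over 3, to -0.25 on the log2 scale without cells with a C1q or T cell UMI. The causes were not tested. With 1 library per condition and no pairing of suffix and condition, no difference between libraries can be told apart from the mice or the preparation.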

Other observations

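Barcodes that passed several gates were left out of every class, and they held far more of the 10 genes than the oligodendrocytes or neuroblasts did. Their summed level was 4848 CPM in library 1, 6116 in library 2 and 2376 in library 3, and 741 of the 2690 had passed the oligodendrocyte and the microglia gate. Of those with 10 or more UMIs of H2-D1, H2-K1 and B2m, 57.0%, 67.7% and 35.1% were called doublets. Barcodes that passed no gate held 6754, 6446 and 1394 CPM.

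The 5 genes whose log2(CPM + 10) was most like the mean of the members over 32 groups of class and library were Sp110 (Pearson r = 0.96), Tnfaip3 (0.95), Zc3hav1 (0.94), H2-Q4 (0.92) and Shisa5 (0.92). The groups share 3 libraries and are not independent, so these values are a description. Among the members, the correlation with the mean of the others was lowest for Tap2 (0.73) and Tapbp (0.83) and highest for Psmb8 (0.98).

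Neurons, few as they were, differed between libraries 1 and 2. H2-D1 was 28.8 CPM (18.6 to 42.5) in 73 neurons of library 1 and 147 CPM (115.6 to 184) in 44 neurons of library 2, and H2-K1 was 19.6 and 85.0 CPM. The carried-over level of H2-D1 was 18.9 and 30.9 CPM. Cells with 10 or more UMIs of H2-D1, H2-K1 and B2m were 0 of 73 neurons in library 1, with an exact upper bound of 4.93%, and 5 of 44 in library 2.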
